A study of Homo sapiens with 12 samples.

Results

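The cathepsins described here were 10 genes of the protease group, CTSA, CTSB, CTSC, CTSD, CTSF, CTSH, CTSK, CTSO, CTSS and CTSZ, chosen by their symbols from a table of 4918 genes. All 10 were listed, and all 10 passed a mean of 1 FPKM over the samples. CTSS and CTSO passed it only through the groups given IFN-γ. Their means were 0.871 and 0.494 FPKM in control and 0.777 and 0.365 FPKM with SB-3CT. RNA was sequenced from A375, an established human melanoma cell line, in 4 groups of 3 samples: control cells given neither agent, cells given SB-3CT (an inhibitor of the gelatinases MMP2 and MMP9), cells given IFN-γ (an inflammatory cytokine), and cells given SB-3CT with IFN-γ. The treatments lasted 24 h, and the dose of SB-3CT used for these samples was not given in the sources used here. The comparisons ask how the transcriptome of these cells responds to SB-3CT with and without IFN-γ, and CTSS was set against the other 9 cathepsins in each.

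Cathepsins are proteases of the lysosome. CTSB, CTSC, CTSF, CTSH, CTSK, CTSO, CTSS and CTSZ are cysteine proteases of the papain family, CTSD is an aspartic protease and CTSA is a serine carboxypeptidase. They are made as inactive precursors, sorted through the Golgi and endosomes, and activated as the compartment becomes acidic, and some are secreted by tumour cells. CTSS is known from antigen-presenting cells, where it cuts the invariant chain CD74 on MHC class II molecules, a step before peptides can bind. CTSC (dipeptidyl peptidase I) trims and activates other proteases, CTSB and CTSH remove dipeptides or single residues as well as cutting inside proteins, CTSK is the collagenase of osteoclasts, and CTSA also protects lysosomal sialidase and β-galactosidase.

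The values are FPKM (fragments per kilobase per unit of mapped fragments), deposited as log2(FPKM + 1). FPKM is a level per length, so that levels can be set side by side between genes, and differences on the log2(FPKM + 1) scale understate the fold of genes near 0. The depth of a sample, read from the steps of the lowest values, lay between 87.4% and 149.9% of the control mean, absolute depth is unknown, and between 4433 and 4605 genes were above 0 in a sample. The labels do not say whether the 3 samples of a group were separate cultures. In the study, the legend of the figure that shows these A375 data describes all experiments as 3 independent repeats, without singling out the RNA sequencing. The limma p-values set a difference of group means against the spread between these samples, whatever its source. That spread was estimated with information shared across genes. Of 7 melanoma markers all were listed, and their summed level was 115 to 119 FPKM in control, 89.3 to 98.7 FPKM with SB-3CT, 87.9 to 92.6 FPKM with IFN-γ and 62.4 to 68.0 FPKM with both. CSPG4 (mean 48.5 FPKM in control) and ERBB3 (57.1 FPKM) made up most of it, while DCT, CAPN3 and ABCB5 were each below 0.4 FPKM in every sample. The treatment with IFN-γ was visible in CXCL10, a chemokine induced by IFN-γ, which was higher by 6.35 on the log2(FPKM + 1) scale (SE 0.06, limma, adjusted p = 9.97e-08) with IFN-γ than in control.

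The start of a gene is where its RNA begins, and upstream sequences of cathepsin genes are shown because several lysosomal genes carry the E-box letters CACGTG there, which are read by basic helix-loop-helix factors such as TFEB. Promoters of 300 bases (250 before the start and 50 after it) were matched in RefSeq (GRCh38.p14) for 6 of the 10 cathepsins, CTSA, CTSC, CTSD, CTSF, CTSH and CTSZ, and not for CTSB, CTSK, CTSO and CTSS. The E-box, a palindrome that reads the same on both strands, was present in 3 of the 6, and in 7.26% of all 35116 promoters of this length. The 130 bases before the start of those 3 genes are printed 5′ to 3′ in the direction of the gene, at chr20:45891205-45891334 (plus strand) for CTSA, chr11:1763928-1764057 (minus strand) for CTSD and chr11:66568607-66568736 (minus strand) for CTSF, with the E-box in capitals.
CTSA: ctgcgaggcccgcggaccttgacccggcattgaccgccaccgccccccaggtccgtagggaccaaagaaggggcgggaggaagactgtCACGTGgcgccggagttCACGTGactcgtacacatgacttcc
CTSD: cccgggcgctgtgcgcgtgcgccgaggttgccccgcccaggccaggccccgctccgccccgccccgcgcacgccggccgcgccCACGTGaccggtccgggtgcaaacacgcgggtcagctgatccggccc
CTSF: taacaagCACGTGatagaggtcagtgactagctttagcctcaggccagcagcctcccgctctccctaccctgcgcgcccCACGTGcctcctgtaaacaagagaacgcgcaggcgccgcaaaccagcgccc
CTSA held the E-box at -42 and -25 from the start, CTSD at -47, and CTSF at -123 and -51. The second of the CTSA matches lay inside the longer form TCACGTGA, which 0.98% of the promoters held on either strand, and the other 5 matched promoters did not hold that form. The letters GAAANNGAA, a repeat bound by interferon regulatory factors, were searched on both strands of the same window. They were found in 0 of the 6, while 8.11% of all promoters held them. These matches describe letters in a window of the reference and not binding in these cells.

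IFN-γ was first compared with control, to see which cathepsins differ when the cytokine is given alone. CTSS was the cathepsin with the largest difference, CTSO and CTSC were also higher, and CTSD, CTSH and CTSK were lower. In counts, 3 of the 10 cathepsins were called higher and 3 lower at an adjusted p under 0.05 (limma, Benjamini-Hochberg over 4918 genes), where 8.46% of all genes were called higher and 11.0% lower. The median difference of the 10 was -0.01 on the log2(FPKM + 1) scale, and that of all genes was -0.02. Groups without overlap were seen for 7 of the 10 (70% against 36.9% of all genes).

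CTSS, on chromosome 1 at 150702555 to 150738433 (hg19, minus strand, 8 exons), was at 0.713, 0.819 and 1.08 FPKM in the 3 control samples and at 44.0, 41.4 and 42.3 FPKM in the 3 samples with IFN-γ. The control samples were all near 1 FPKM and the treated ones all above 41, with no overlap. The means were 0.871 and 42.6 FPKM, a ratio of 48.9, or 0.90 ± 0.14 and 5.44 ± 0.04 on the log2(FPKM + 1) scale (SD, n = 3). The difference of 4.55 on the log2(FPKM + 1) scale (SE 0.08, 95% interval 4.34 to 4.75, limma, adjusted p = 1.57e-06) ranked 4 among the rises of the 4918 genes. An exact permutation test of 3 samples against 3 gave a two-sided p of 0.1, the smallest it can give. CTSK, the neighbour of CTSS 28.9 kb away on the same strand, was at 3.42, 3.60 and 3.09 FPKM in control and at 2.48, 2.42 and 2.26 FPKM with IFN-γ, a difference of -0.37 (SE 0.07, adjusted p = 0.0191, limma). The adjacent genes thus differed from control in opposite directions, and the CTSK call was lost without control replicate 1 (adjusted p = 0.0711), control replicate 2 (0.0694) or IFN-γ replicate 3 (0.0762).

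CTSO, a little-studied papain-like protease on chromosome 4 (156842732 to 156875064, hg19, minus strand), was at 0.423, 0.461 and 0.597 FPKM in control and at 3.12, 3.35 and 3.57 FPKM with IFN-γ. Every treated sample was above every control sample, and the mean rose from 0.494 ± 0.0915 FPKM to 3.35 ± 0.227 FPKM (SD, n = 3), a ratio of 6.78. On the log2(FPKM + 1) scale CTSO rose by 1.54 (SE 0.07, limma, adjusted p = 5.98e-05), rank 52 among all rises. CTSC, on chromosome 11 (87998237 to 88092852, hg19, minus strand), started from a far higher level, at 137, 148 and 152 FPKM in control, and was at 224, 201 and 209 FPKM with IFN-γ. It rose by 0.53 (SE 0.06, limma, adjusted p = 0.00245), a ratio of 1.45. In absolute level the gain of CTSC, from a mean of 146 ± 7.84 FPKM to 211 ± 11.5 FPKM, was of the same order as that of CTSS.

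Among the cathepsins that were lower, CTSD was at 134, 132 and 141 FPKM in control and at 115, 115 and 116 FPKM with IFN-γ. The groups did not overlap, and CTSD fell by 0.23 (SE 0.04, limma, adjusted p = 0.0117). CTSD overlaps annotated genes on both strands, and whether the counting used strand was not given in the sources used here. CTSH, an aminopeptidase, was at 6.46, 8.54 and 6.46 FPKM in control and at 5.11, 5.09 and 4.77 FPKM with IFN-γ, a difference of -0.44 (SE 0.11, limma, adjusted p = 0.0387). One control sample was higher than the rest, and the CTSH call held only without that sample, control replicate 2. It was lost without each of the other control samples (adjusted p = 0.0679 without replicate 1 and 0.0708 without replicate 3) and without each of the IFN-γ samples (0.0867, 0.0811 and 0.124).

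The remaining 4 cathepsins were not called. CTSZ, a carboxypeptidase and the most abundant of the 10 in control, was at 253, 273 and 300 FPKM there and at 252, 213 and 225 FPKM with IFN-γ, a difference of -0.26 (95% interval -0.47 to -0.05, limma, adjusted p = 0.0905). CTSB was at 46.4, 47.0 and 50.3 FPKM in control and at 58.6, 49.2 and 54.8 FPKM with IFN-γ, a difference of 0.17 (95% interval -0.00257 to 0.35, adjusted p = 0.157, limma). CTSB was called higher without IFN-γ replicate 2, its lowest treated sample (0.24, adjusted p = 0.0409), and also under both other scalings, by 0.22 in each (adjusted p = 0.0184 after median-ratio scaling and 0.0413 after quantile normalization). CTSA differed by 0.09 (95% interval -0.07 to 0.25, adjusted p = 0.427) and CTSF by -0.11 (-0.36 to 0.13, adjusted p = 0.504, both limma). Their samples overlapped between the groups.

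**Figure D1:**
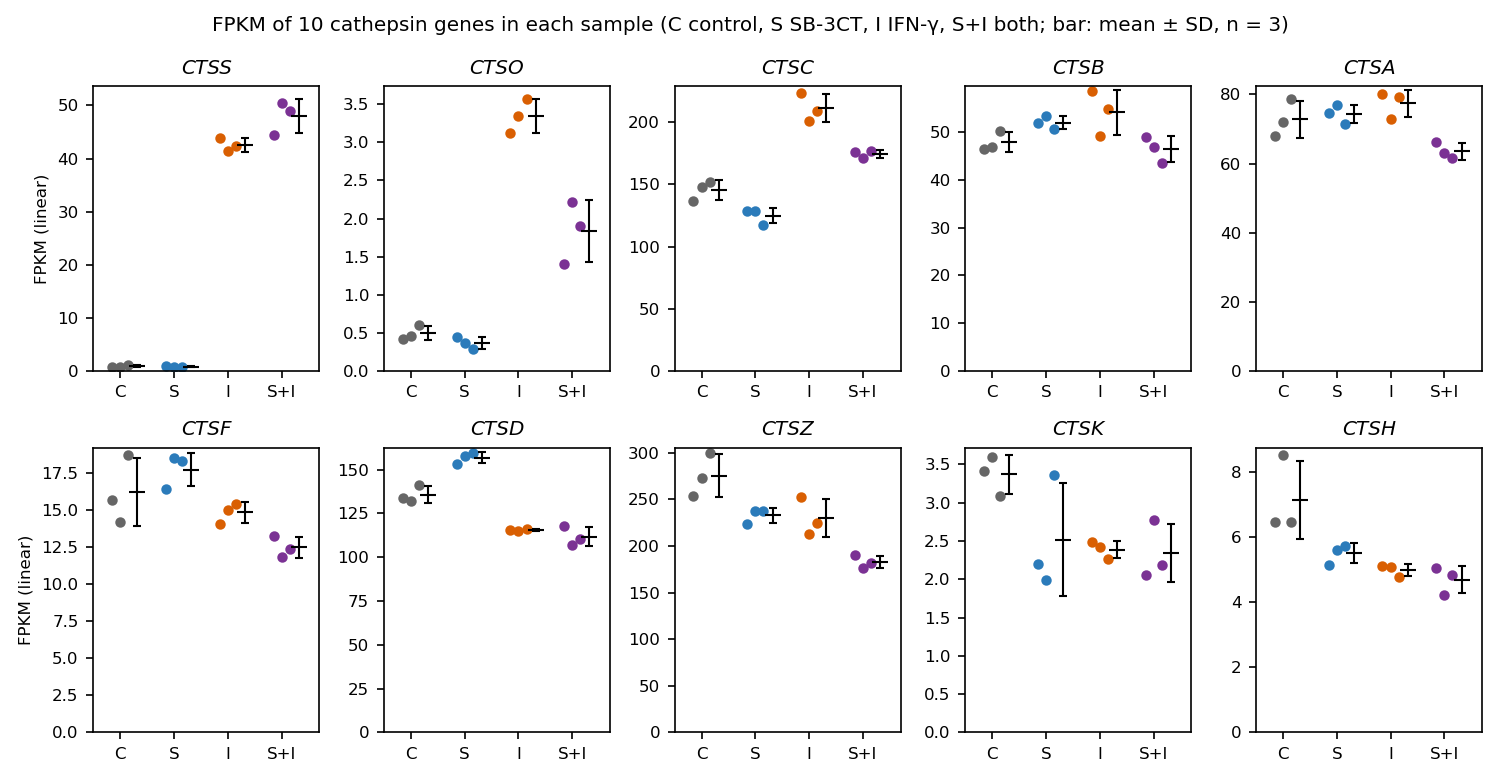
FPKM of the 10 cathepsins (linear axes from 0, one panel per gene) in the 12 samples, with the mean and SD of each group of 3 at the right of its points. CTSS and CTSO stand near 0 in control and SB-3CT samples and apart from them in all 6 samples with IFN-γ, while the other panels change by smaller steps.

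SB-3CT was then compared with control, to see what the inhibitor did in the absence of IFN-γ. The 10 cathepsins differed little: CTSD was called higher and CTSC lower, and the other 8, CTSS among them, were not called. CTSL, a cathepsin outside the 10 that is described below, rose by 0.45 (adjusted p = 0.00596, limma). The counts were 1 of 10 higher and 1 of 10 lower, where 5.37% of all genes were called higher and 6.87% lower. The median difference of the 10 was -0.10 on the log2(FPKM + 1) scale, and that of all genes was -0.01. This comparison and that of IFN-γ used the same 3 control samples.

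CTSS was at 0.842, 0.679 and 0.810 FPKM with SB-3CT, inside or below the range of the control samples. The difference was -0.07 (SE 0.08, 95% interval -0.27 to 0.13, limma, adjusted p = 0.637), and the exact two-sided permutation p was 0.5. CTSO was at 0.439, 0.372 and 0.284 FPKM, overlapping control, a difference of -0.13 (95% interval -0.28 to 0.02, adjusted p = 0.214, limma). At these levels the log2(FPKM + 1) scale compresses differences, and both genes were close to the bottom of the cathepsins.

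CTSD was at 153, 158 and 159 FPKM with SB-3CT, above all 3 control samples, and rose by 0.21 (SE 0.04, limma, adjusted p = 0.0277). CTSC was at 128, 129 and 118 FPKM, below all 3 control samples, and fell by 0.22 (SE 0.06, limma, adjusted p = 0.0495). Both differences were near the threshold. The CTSC call was lost without any one of the 6 samples (adjusted p from 0.0661 without SB-3CT replicate 1 to 0.158 without control replicate 3), and the CTSD call was lost without any one but SB-3CT replicate 1 (adjusted p from 0.0510 without control replicate 3 to 0.101 without SB-3CT replicate 3). CTSC was also not called after median-ratio scaling (-0.18, adjusted p = 0.0949).

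Of the others, CTSZ was at 224, 237 and 237 FPKM with SB-3CT, below the lowest control sample, a difference of -0.24 (95% interval -0.39 to -0.08, limma, adjusted p = 0.0595). CTSH differed by -0.32 (95% interval -0.57 to -0.06, adjusted p = 0.101) and CTSB by 0.12 (0.01 to 0.22, adjusted p = 0.134, both limma), also without overlap of the samples. CTSK was at 2.20, 1.99 and 3.36 FPKM, so that one SB-3CT sample lay within the control range and the others below it, and its difference of -0.33 was not called (95% interval -0.68 to 0.01, adjusted p = 0.182, limma). CTSF and CTSA differed by 0.13 (adjusted p = 0.437) and 0.03 (adjusted p = 0.779, both limma), with overlap.

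**Figure D2:**
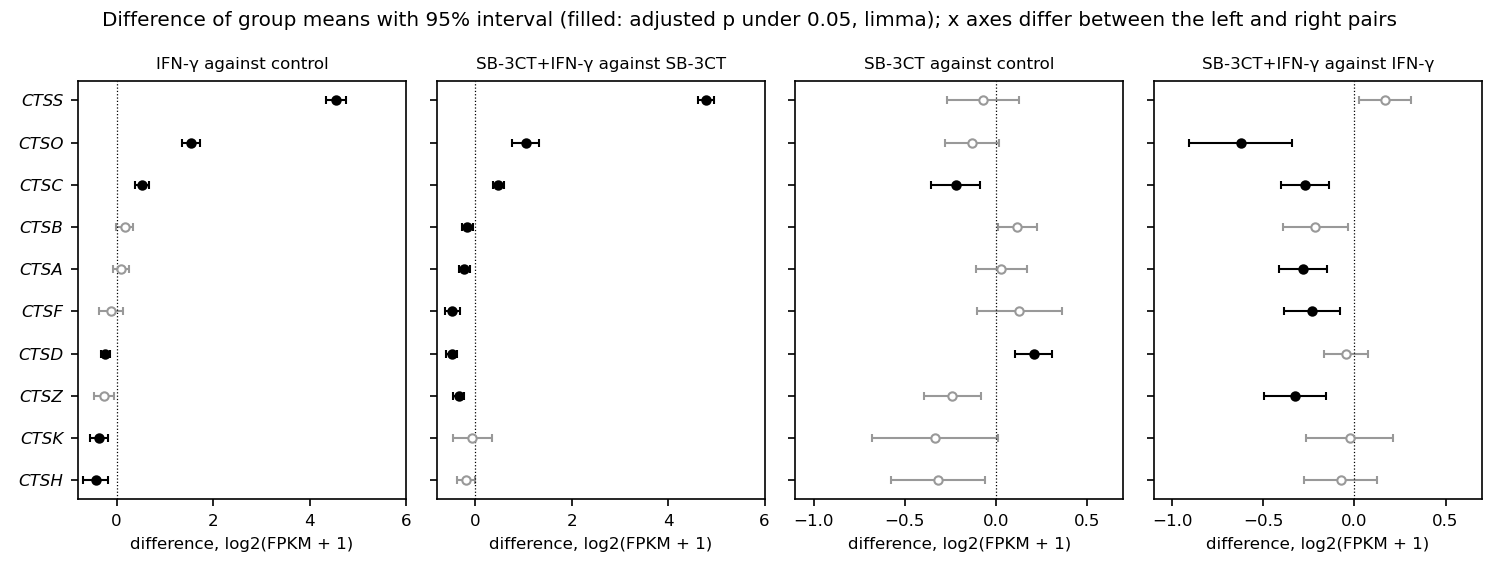
Difference of the group means of each cathepsin on the log2(FPKM + 1) scale with its 95% interval in the 4 comparisons of 2 groups, filled where the adjusted p was under 0.05 (limma). The left pair of panels has a wider x axis than the right pair. CTSS lies at 4.55 and 4.78 in the comparisons for IFN-γ. In those for SB-3CT it lies at -0.07 against control and at 0.17 against IFN-γ alone, the latter with an interval above 0.

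The main question of the design, what SB-3CT did to cells given IFN-γ, was addressed by the comparison of SB-3CT with IFN-γ against IFN-γ alone. On the deposited scale CTSO, CTSZ, CTSA, CTSC and CTSF were lower and CTSS was at a slightly higher level that was not called. In counts, 0 of the 10 cathepsins were called higher and 5 lower (limma), where 6.41% of all genes were called higher and 31.5% lower. At an unadjusted p under 0.05, CTSS was higher and CTSB lower besides these 5. The median difference of the cathepsins was -0.22 on the log2(FPKM + 1) scale. That of the 3177 genes with a mean of at least 1 FPKM was -0.20.

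With that shift, several of these calls depended on how the samples were scaled. When each sample was scaled by the median of its ratios to a mean sample, the median difference of the 3177 genes was 0.02, and the split of all genes called moved from 315 higher and 1547 lower to 811 and 760. Under this scaling 2 cathepsins were called higher, CTSS and CTSD, and 1 lower, CTSO. After quantile normalization (542 genes higher and 714 lower) CTSS was called higher and CTSA, CTSC and CTSZ lower. No scaling was stated by the authors beyond FPKM, and which of these is nearer to the RNA content of the cells was not tested. The summed melanoma markers were lowest in the same samples (62.4 to 68.0 FPKM against 87.9 to 92.6 FPKM with IFN-γ alone), and the part of this in the differences was not tested.

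CTSS was at 44.4, 50.5 and 49.0 FPKM with both agents, above the 3 samples with IFN-γ alone, and the mean was 48.0 ± 3.18 FPKM (SD, n = 3). The difference was 0.17 on the deposited scale (SE 0.06, 95% interval 0.02 to 0.31, limma, adjusted p = 0.0678). It was 0.42 after median-ratio scaling (SE 0.06, adjusted p = 0.00391) and 0.27 after quantile normalization (SE 0.06, adjusted p = 0.0192, both limma). CTSS was thus above IFN-γ alone under each scaling, and called under 2 of 3. Without SB-3CT+IFN-γ replicate 1, the lowest of its group, CTSS was called on the deposited scale too (0.22, adjusted p = 0.0293, limma). The exact two-sided permutation p was 0.1, the smallest possible.

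CTSO was at 1.40, 2.21 and 1.91 FPKM with both agents, below all 3 samples with IFN-γ alone and above all samples without it. It fell by 0.62 (SE 0.12, limma, adjusted p = 0.00674), from a mean of 3.35 to 1.84 ± 0.409 FPKM (SD, n = 3), a ratio of 0.55. The difference stayed negative after median-ratio scaling (-0.45, adjusted p = 0.0345) and after quantile normalization (-0.37, adjusted p = 0.0631, both limma), where it was no longer called. CTSO and CTSS, which both rose with IFN-γ, therefore lay on opposite sides of 0 when SB-3CT was added.

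CTSC was at 176, 171 and 177 FPKM with both agents, below the samples with IFN-γ alone and above control, and differed by -0.27 (SE 0.06, limma, adjusted p = 0.00838). CTSZ was at 190, 177 and 182 FPKM, the lowest of its 4 groups, and differed by -0.32 (SE 0.07, limma, adjusted p = 0.0114). CTSA, at 66.2, 62.9 and 61.5 FPKM, differed by -0.28 (SE 0.06, limma, adjusted p = 0.00776), and CTSF, at 13.3, 11.8 and 12.4 FPKM, by -0.23 (SE 0.07, limma, adjusted p = 0.0283). After median-ratio scaling these 4 differences were -0.02, -0.07, -0.03 and 0.01, none called, and after quantile normalization they were -0.39, -0.46, -0.25 and -0.04, of which that of CTSF was not called. The CTSF call on the deposited scale was also lost without IFN-γ replicate 2 (adjusted p = 0.0576) or 3 (0.0986) or without SB-3CT+IFN-γ replicate 2 (0.0957) or 3 (0.0868), and the CTSZ call without SB-3CT+IFN-γ replicate 2 (0.0544) or 3 (0.0524). CTSZ and CTSA overlap genes on the opposite strand (NELFCD for CTSZ, and PLTP and NEURL2 for CTSA), from which reads counted without strand could not be told apart.

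CTSB, at 48.9, 46.9 and 43.6 FPKM, was below all samples with IFN-γ alone, a difference of -0.22 (95% interval -0.39 to -0.04, limma, adjusted p = 0.0609) that was called without IFN-γ replicate 2 (-0.28, adjusted p = 0.0222) and was 0.04 after median-ratio scaling. CTSD (118, 107 and 111 FPKM) differed by -0.05 (95% interval -0.17 to 0.07, adjusted p = 0.519) on the deposited scale, and by 0.21 after median-ratio scaling (adjusted p = 0.0357, both limma). CTSH and CTSK differed by -0.08 (95% interval -0.27 to 0.12) and -0.03 (-0.26 to 0.21), with overlap of the samples, and by 0.14 and 0.16 after median-ratio scaling, in no case called.

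**Figure D3:**
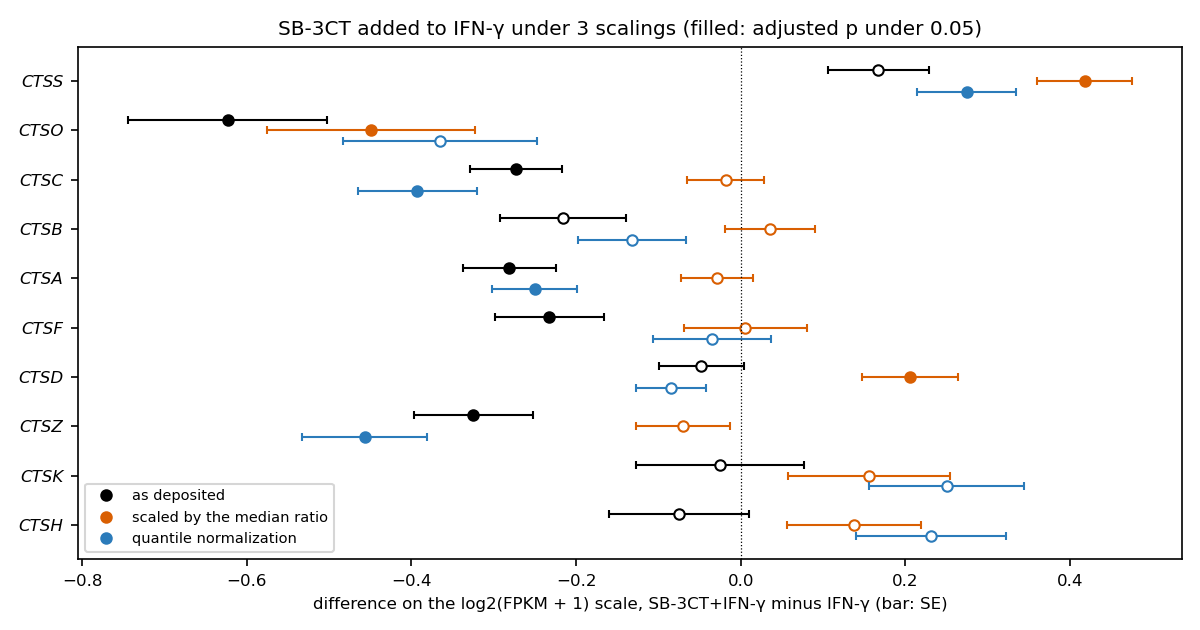
Difference between SB-3CT with IFN-γ and IFN-γ alone for each cathepsin on the log2(FPKM + 1) scale (point, with SE as the bar) as deposited, after median-ratio scaling and after quantile normalization, filled where the adjusted p was under 0.05 (limma). CTSS is right of 0 and CTSO left of 0 under all 3 scalings, while CTSB, CTSD, CTSF, CTSH and CTSK cross 0 between scalings.

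IFN-γ was also compared with its absence in cells that all received SB-3CT. CTSS, CTSO and CTSC were higher, and CTSD, CTSF, CTSZ, CTSA and CTSB were lower, so that 3 of 10 cathepsins were called higher and 5 lower, where 7.85% of all genes were called higher and 32.7% lower. This comparison carried the same shift, a median of -0.21 over the 3177 genes, which was 0.01 after median-ratio scaling. The genes called then moved from 386 higher and 1608 lower to 675 and 504, and the cathepsins to 3 higher and 1 lower. After quantile normalization 523 genes were higher and 834 lower.

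CTSS rose from a mean of 0.777 ± 0.0863 FPKM to 48.0 ± 3.18 FPKM, a ratio of 61.7, and by 4.78 on the log2(FPKM + 1) scale (SE 0.07, limma, adjusted p = 5.78e-07), rank 5 among the rises of all genes. CTSO rose by 1.05 (SE 0.12, limma, adjusted p = 0.00145), a ratio of 5.04. CTSC rose by 0.48 (SE 0.05, limma, adjusted p = 0.000907), a ratio of 1.40. These 3 were called higher under both other scalings as well. The samples with IFN-γ lay above all those without it for each of the 3.

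CTSD fell by 0.49 (SE 0.04, limma, adjusted p = 0.000809), from a mean of 157 ± 3.13 FPKM to 112 ± 5.52 FPKM, and was lower also after median-ratio scaling (-0.22, adjusted p = 0.0367) and quantile normalization (-0.45, adjusted p = 0.000827). It was the cathepsin called lower with IFN-γ under each scaling, both without SB-3CT and with it. CTSF differed by -0.47 (adjusted p = 0.00277), CTSZ by -0.35 (0.00216), CTSA by -0.22 (0.00966) and CTSB by -0.16 (0.0449, all limma), and after median-ratio scaling by -0.23, -0.08, 0.04 and 0.10, none called. After quantile normalization CTSF (-0.30, adjusted p = 0.0334) and CTSZ (-0.41, adjusted p = 0.000423, both limma) were still called lower, and CTSA and CTSB were not. The CTSB call held without SB-3CT+IFN-γ replicate 1 and was lost without each other sample (adjusted p from 0.0761 without SB-3CT replicate 3 to 0.122 without SB-3CT replicate 2). CTSH (-0.19, 95% interval -0.39 to -0.000993) and CTSK (-0.06, -0.46 to 0.34) were not called.

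Whether the response to SB-3CT differed with and without IFN-γ was tested as the difference of both differences, over all 12 samples. CTSO (-0.49), CTSB (-0.33), CTSA (-0.31) and CTSD (-0.26) were called lower, that is, less raised or more lowered by SB-3CT in the presence of IFN-γ, and 0 cathepsins were called higher. This compares with 4.74% of all genes called higher and 17.6% lower. At an unadjusted p under 0.05, CTSF was lower too and still 0 were higher. On a scale of log2(FPKM + 0.1) CTSO was not called (adjusted p = 0.214, limma), while CTSA, CTSB and CTSD were. After median-ratio scaling none of the 4 was called and CTSS was called higher (0.47, adjusted p = 0.0143, limma), and after quantile normalization CTSA and CTSD were called lower. On the deposited scale the difference for CTSS was 0.24 (95% interval -0.00665 to 0.48, limma, adjusted p = 0.149). The median over the 3177 genes was -0.19 as deposited, -0.02 after median-ratio scaling and -0.04 after quantile normalization, and the genes called went from 233 higher and 866 lower to 384 and 257 and to 295 and 345.

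The order of the levels shows how far CTSS moved among the cathepsins. In control, CTSZ had the highest mean (275 ± 23.2 FPKM, SD, n = 3), followed by CTSC (146 FPKM) and CTSD (136 FPKM), whose samples overlapped, then CTSA (72.9 FPKM), CTSB (47.9 FPKM), CTSF (16.2 FPKM), CTSH (7.15 FPKM), CTSK (3.37 FPKM), CTSS (0.871 FPKM) and CTSO (0.494 FPKM). CTSS was at rank 9 in control and in SB-3CT samples, at rank 6 with IFN-γ, below CTSB (54.2 FPKM), and at rank 5 with both agents, where its samples overlapped those of CTSB (46.5 FPKM). With IFN-γ the samples of CTSZ (230 FPKM) and CTSC (211 FPKM) overlapped, as they did with both agents (183 and 175 FPKM). CTSO passed CTSK with IFN-γ (3.35 against 2.39 FPKM) and overlapped it with both agents (1.84 against 2.34 FPKM).

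A share of the summed level of the 10 cathepsins does not depend on a factor applied to a whole sample, such as median-ratio scaling, though quantile normalization would alter it. CTSS made up 0.107%, 0.117% and 0.144% of the sum in control samples and 0.128%, 0.0997% and 0.122% with SB-3CT. Its share was 5.50%, 5.77% and 5.62% with IFN-γ and 6.68%, 7.94% and 7.60% with both agents. Every sample with both agents thus had a larger CTSS share than every sample with IFN-γ alone, and the means were 7.41 ± 0.649% and 5.63 ± 0.131% (SD, n = 3). The sum of the other 9 cathepsins was 705 ± 43.5 FPKM in control, 667 ± 12.3 FPKM with SB-3CT, 714 ± 39.2 FPKM with IFN-γ and 601 ± 17.7 FPKM with both. On the deposited scale the sum of the 9 was therefore lower, and CTSS higher, in cells given both agents than in those given IFN-γ alone. CTSL is not in these sums, and its mean was higher with both agents (160 FPKM) than with IFN-γ alone (123 FPKM).

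**Figure D4:**
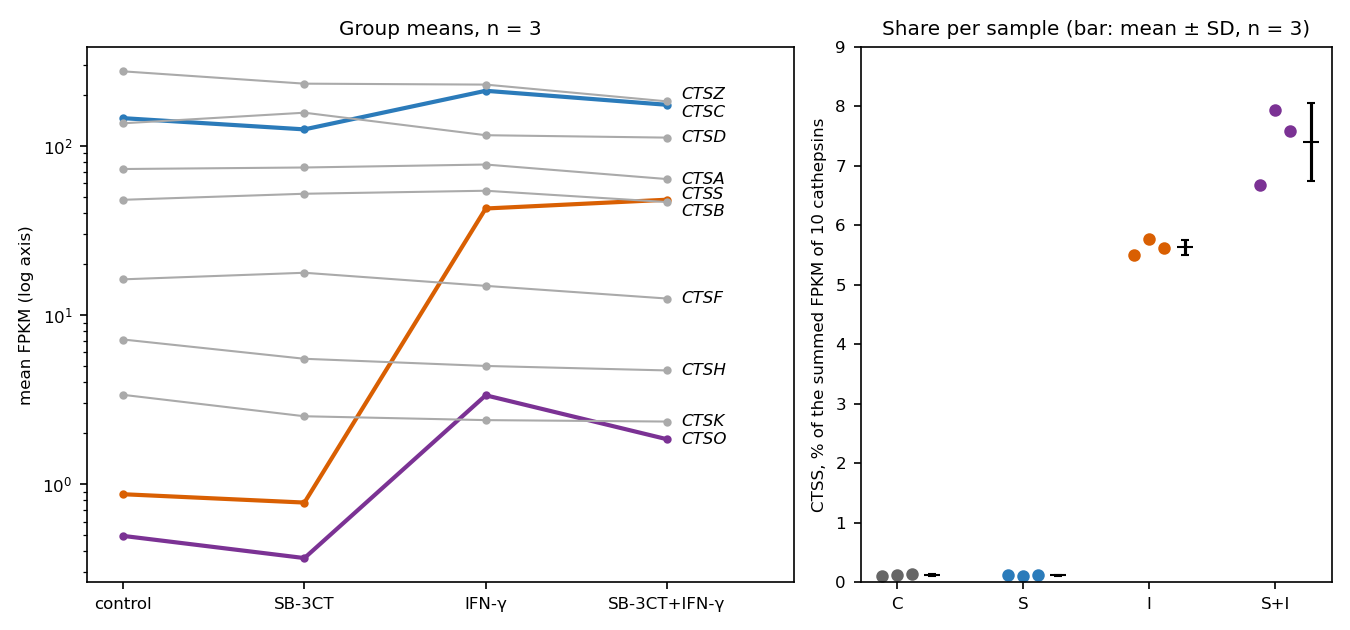
Left, mean FPKM (log axis, n = 3) of the 10 cathepsins in the 4 groups. Right, CTSS as a percentage of the summed FPKM of the 10 cathepsins in each sample, with mean and SD. The CTSS line crosses those of CTSK, CTSH and CTSF between SB-3CT and IFN-γ, and its share goes from 0.117% with SB-3CT to 5.63% with IFN-γ.

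Of 7 other cathepsin symbols looked for, 4 were listed. CTSL, the broadly expressed relative of CTSS, was at a mean of 96.1 ± 2.89 FPKM in control, 132 ± 7.50 FPKM with SB-3CT, 123 ± 9.68 FPKM with IFN-γ and 160 ± 3.73 FPKM with both (SD, n = 3). It rose in all 4 comparisons, by 0.35 with IFN-γ (adjusted p = 0.0146), 0.45 with SB-3CT (0.00596), 0.39 when SB-3CT was added to IFN-γ (0.00446) and 0.28 when IFN-γ was added to SB-3CT (0.00642, all limma), and was called higher in each under both other scalings. CTSE, CTSV and CTSW were low, with means from 0.0846 FPKM (CTSE with IFN-γ) to 1.59 FPKM (CTSW with SB-3CT), and were not called in any comparison on the deposited scale.

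Of 11 inhibitors of cathepsins looked for 8 were measured, and only 3 of them had a mean of at least 1 FPKM. With IFN-γ against control A2M, a broad protease trap of plasma, rose by 3.40 (adjusted p = 2.17e-06), CSTB, a cytosolic cystatin, fell by 0.29 (adjusted p = 0.0285, both limma) and 6 were not called. CST3, the main secreted cystatin, had the highest level, at 247 ± 29.2 FPKM in control and 276 ± 12.9 FPKM with IFN-γ (limma, adjusted p = 0.277). It was named for its level, after the values were seen. With SB-3CT against control 0 of the 8 were called (limma), nor was any at an unadjusted p under 0.05 or under the other scalings. When SB-3CT was added to IFN-γ, CSTB rose by 0.19 (adjusted p = 0.0369) and A2M fell by 0.21 (adjusted p = 0.0229, both limma), of which only the rise of CSTB was called after median-ratio scaling and neither after quantile normalization. When IFN-γ was added to SB-3CT, A2M rose by 3.22 (adjusted p = 5.09e-07) and CSTB fell by 0.20 (adjusted p = 0.0307, both limma), the latter not called under either other scaling. The shares of all genes called higher and lower were 8.46% and 11.0% with IFN-γ, and 5.37% and 6.87% with SB-3CT. They were 6.41% and 31.5% when SB-3CT was added to IFN-γ, and 7.85% and 32.7% when IFN-γ was added to SB-3CT.

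CTSS acts in antigen processing, and 8 genes of that pathway were read beside it. With IFN-γ against control, 5 of 8 rose and 1 fell, with a median of 1.27, and CIITA, the activator of class II genes, rose by 2.60 (adjusted p = 3.87e-06), B2M, the light chain of class I, by 1.85 (2.34e-05) and ERAP1, a peptide-trimming protease, by 1.58 (0.000204, all limma). CD74, whose product CTSS cuts, is given although the naming rule did not choose it here: its level was 935 ± 45.4 FPKM in control and 2247 ± 98.5 FPKM with IFN-γ, a rise of 1.26 (adjusted p = 0.000102, limma). With SB-3CT against control 0 of the 8 were called (limma), 2 were lower at an unadjusted p under 0.05, and 1 was called lower after quantile normalization. Of all genes, 8.46% were called higher and 11.0% lower with IFN-γ, and 5.37% and 6.87% with SB-3CT. When SB-3CT was added to IFN-γ, 0 rose (0 also at an unadjusted p under 0.05) and 6 fell, beside 6.41% of all genes called higher and 31.5% lower. Among the 6 were ERAP1, lower by 0.61 (adjusted p = 0.00212), CANX by 0.50 (0.00268) and CIITA by 0.49 (0.00254, all limma). Of the 8, 4 were called lower after median-ratio scaling and 5 after quantile normalization. When IFN-γ was added to SB-3CT, 5 rose and 3 fell, beside 7.85% of all genes called higher and 32.7% lower. The largest differences were those of B2M (2.15), CIITA (2.03) and CD74 (1.06). The counts were 5 and 0 after median-ratio scaling and 5 and 2 after quantile normalization. In the test of the difference of differences 1 was higher and 5 lower, beside 4.74% of all genes called higher and 17.6% lower. The counts were 1 and 2 after median-ratio scaling and 0 and 5 after quantile normalization.

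Lysosomal hydrolases and membrane proteins other than cathepsins were 24 in number. Of these, 4 rose and 2 fell with IFN-γ against control, with a median of -0.02, and the largest were ACP2, an acid phosphatase (0.84, adjusted p = 0.000478), CLN8 (-0.49, adjusted p = 0.00605) and CD68, a lysosomal membrane glycoprotein (0.44, adjusted p = 0.0167, all limma). With SB-3CT against control 2 rose (CLN3 by 0.48 and CTNS, the cystine exporter, by 0.29) and CD164 fell by 0.33. Of all genes, 8.46% were called higher and 11.0% lower with IFN-γ, and 5.37% and 6.87% with SB-3CT. When SB-3CT was added to IFN-γ 0 rose (1 at an unadjusted p under 0.05) and 5 fell, beside 6.41% of all genes called higher and 31.5% lower. The falls were led by ENTPD4 (-0.63), ACP2 (-0.41) and ARSB (-0.40). Their differences were -0.43, -0.16 and -0.19 after median-ratio scaling, where ACP2 was not called (adjusted p = 0.200, limma). They were -0.34, -0.25 and -0.09 after quantile normalization, where ARSB was not called (adjusted p = 0.320, limma). After median-ratio scaling 6 of the 24 were higher and 2 lower, and after quantile normalization 4 and 2. When IFN-γ was added to SB-3CT 4 rose and 9 fell, beside 7.85% of all genes called higher and 32.7% lower. The counts were 7 and 1 after median-ratio scaling and 5 and 4 after quantile normalization. The difference of differences gave 0 higher (0 at an unadjusted p under 0.05) and 4 lower, beside 4.74% of all genes called higher and 17.6% lower. The counts were 1 and 0 after median-ratio scaling and 0 and 0 after quantile normalization.

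The adaptor, clathrin and BLOC-1 genes that sort lysosomal proteins were 20 in number. With IFN-γ against control 0 rose (1 at an unadjusted p under 0.05) and 1 fell (AP1M2, by 1.11, adjusted p = 0.0156, limma), and with SB-3CT against control 3 rose (CLTB by 0.33, AP1M1 by 0.28 and AP1B1 by 0.24) and 0 fell (3 at an unadjusted p under 0.05). The shares of all genes called higher and lower were 8.46% and 11.0% with IFN-γ, and 5.37% and 6.87% with SB-3CT. When SB-3CT was added to IFN-γ 4 rose and 7 fell, beside 6.41% of all genes called higher and 31.5% lower. The falls were led by AP3B1 (-0.76), CLTC (-0.73) and AP1G1 (-0.65). These 3 were also lower after median-ratio scaling (-0.53, -0.49 and -0.42), where the counts were 4 and 3 (1 and 4 after quantile normalization). When IFN-γ was added to SB-3CT 2 rose and 13 fell, beside 7.85% of all genes called higher and 32.7% lower. The counts were 3 and 2 after median-ratio scaling and 2 and 7 after quantile normalization. The difference of differences gave 2 higher and 6 lower, beside 4.74% of all genes called higher and 17.6% lower. The counts were 2 and 2 and 1 and 3 under these scalings.

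The genes whose levels over the 12 samples were most like those of CTSS, by Pearson's r on the log2(FPKM + 1) scale among 3176 genes with a mean of at least 1 FPKM, were CXCL10 (r = 0.999), C3 (0.999), C1S (0.998), CD7 (0.998) and APOBEC3G (0.997). The samples fall into a set with IFN-γ and a set without it, so r describes that split. CXCL10 went from a mean of 0.0167 FPKM in control to 81.7 FPKM with IFN-γ and 112 FPKM with both, C3 from 2.89 to 21.6 and 21.2 FPKM, and C1S from 0.236 to 42.5 and 37.5 FPKM. Among the cathepsins CTSO (r = 0.93, rank 76) and CTSC (0.88, rank 104) were most like CTSS, and CTSD was the most opposed (-0.91). When SB-3CT was added to IFN-γ CXCL10 rose by 0.44 (adjusted p = 0.00874, limma), while CD274, which encodes PD-L1, fell by 0.53 (adjusted p = 0.00542, limma). After median-ratio scaling the differences were 0.70 (adjusted p = 0.00516) for CXCL10 and -0.28 (0.0320, both limma) for CD274. After quantile normalization they were 0.37 (adjusted p = 0.0364) and -0.33 (0.0289, both limma).

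Markers of cells that express CTSS strongly were also read. Of 10 markers of macrophages and other myeloid cells 5 were listed, and their summed level was 1.27 to 2.18 FPKM in control, 2.21 to 2.94 FPKM with SB-3CT, 2.28 to 3.33 FPKM with IFN-γ and 2.91 to 4.23 FPKM with both. CD33 made up most of it, with means of 1.70 FPKM in control, 2.46 FPKM with SB-3CT, 1.56 FPKM with IFN-γ and 2.04 FPKM with both. CD14 and CYBB did not exceed 0.226 and 0.0325 FPKM in any sample. The means of CD14 were 0.0381 FPKM in control, 0.0862 FPKM with SB-3CT, 0.137 FPKM with IFN-γ and 0.0896 FPKM with both. Unlike CD33 and CYBB, the markers CD14, CLEC7A and CSF1R had higher means with IFN-γ than in control. CLEC7A had a mean of 0.0241 FPKM in control, 0.728 FPKM with IFN-γ and 1.02 FPKM with both, and CSF1R of 0.0692, 0.342 and 0.229 FPKM. Of 10 lymphocyte markers 5 were listed, with a sum of at most 1.01 FPKM. The part of such cells in the CTSS values was not tested, and in bulk RNA more cells expressing a gene and more RNA per cell cannot be told apart.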

How the data were processed

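RNA from 12 samples of A375 cells, 3 in each of 4 groups taken from the sample labels, had been sequenced by the authors as paired-end reads. Per the submitters' processing notes and the methods of the study, reads were aligned to hg19 with HISAT2 2.0.5, and StringTie 1.3.3 gave FPKM. The values deposited by the authors are on the log2 scale, as log2(FPKM + 1) (their maximum was 12.2), and 0 columns of values were left unused. Since the planned tests assumed FPKM, no further logarithm (pseudocount 1) was taken, and FPKM was recovered as 2 to the power of the value minus 1. The table held 4918 genes with symbols from A1BG to FAM46B, and later symbols were not analysed here.

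limma 3.58.1 (R 4.3.3) was fitted with lmFit and eBayes with trend to the 3 + 3 samples of a comparison, or to all 12 for the difference of differences, two-sided, with Benjamini-Hochberg adjustment over the 4918 genes and a threshold of 0.05. The exact permutation test was used for CTSS. The functions were tested on simulated data. The members and the gene lists were chosen with earlier results of these data known. All 10 members are named in each comparison, with the other cathepsins listed and at most the 3 largest called changes of each list. The 5 genes most like CTSS are named by r.

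Relative depth came from the steps of FPKM below 0.15 (1 set of depths accounted for 66 of 66 pairs of samples to within 0.05 in log2), and no counting error can be given without absolute depth. Gene positions came from GENCODE release 44 mapped to hg19, promoters from RefSeq. Alternatives were median-ratio scaling, quantile normalization, a pseudocount of 0.1, a mean of at least 1 FPKM, a replicate block, all 4 groups in one fit, eBayes without trend or robust, a call at a fold over 1.5 with an unadjusted p under 0.05, and each sample left out.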

Additional observations from a re-analysis of the deposited data

Results flagged for a closer look

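A set of 4 cathepsins had an SB-3CT effect that differed between cells with and without IFN-γ by the test of the difference itself (limma over all 12 samples). The effect with IFN-γ minus that without was -0.49 on the log2(FPKM + 1) scale for CTSO (adjusted p = 0.0295), -0.33 for CTSB (0.0247), -0.31 for CTSA (0.0220) and -0.26 for CTSD (0.0162). For CTSO the effect was -0.13 without IFN-γ and -0.62 with it. At the low level of CTSO without IFN-γ this scale compresses differences, and the FPKM ratios were 0.74 without it and 0.55 with it. With a pseudocount of 0.1 the effects were -0.36 and -0.85, and their difference was not called (-0.49, adjusted p = 0.214, limma). CTSB was 0.12 without and -0.22 with IFN-γ, CTSA was 0.03 and -0.28, and CTSD was 0.21 and -0.05. The median of this difference over 3177 genes was -0.19, and after scaling by the median ratio the values were -0.34, -0.12, -0.10 and -0.04, none called. Leaving out 1 of the 12 samples ended the call of CTSO without control replicate 1 or 2, SB-3CT replicate 1 or 2 or IFN-γ replicate 3 (-0.45 to -0.49), that of CTSB without control replicate 1 or 2, IFN-γ replicate 1 or 3 or SB-3CT+IFN-γ replicate 3 (-0.28 to -0.32), and that of CTSA without control replicate 2, IFN-γ replicate 1 or 3 or SB-3CT+IFN-γ replicate 3 (-0.29 to -0.31). The adjusted p of these was 0.0518 to 0.0682, and the CTSD call was lost in 0 of the 12.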

How the results depend on the processing

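The scaling changed many calls, and the cause was not tested. With scaling by the median ratio, the cathepsins called lower were 0 for SB-3CT against control, 1 for SB-3CT+IFN-γ against IFN-γ (2 higher), 1 for SB-3CT+IFN-γ against SB-3CT and 0 for the difference of differences (1 higher). With quantile normalization they were 2, 3 (1 higher), 3 and 2. CTSS with SB-3CT added to IFN-γ became 0.42 and 0.27, and its difference of differences 0.47 with scaling by the median ratio. Signs turned in SB-3CT+IFN-γ against IFN-γ with scaling by the median ratio for CTSB (0.0353), CTSD (0.21), CTSF (0.00581), CTSH (0.14) and CTSK (0.16), and with quantile normalization for CTSH (0.23) and CTSK (0.25). In SB-3CT+IFN-γ against SB-3CT they turned with scaling by the median ratio for CTSA (0.0359), CTSB (0.0977), CTSH (0.0271) and CTSK (0.13), and with quantile normalization for CTSH (0.00825) and CTSK (0.11). In the difference of differences they turned with scaling by the median ratio for CTSC (0.16) and CTSZ (0.13).

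For SB-3CT against control, the cathepsins called lower were 3 with a mean of at least 1 FPKM, 0 with eBayes without trend, 2 with robust estimation and 2 with all 4 groups in one fit, against 1. A fold over 1.5 with an unadjusted p under 0.05 gave 0 lower for IFN-γ against control, 0 higher and 0 lower for SB-3CT against control, 1 lower for SB-3CT+IFN-γ against IFN-γ and 0 lower for SB-3CT+IFN-γ against SB-3CT.

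Same-numbered samples did not deviate together (correlations from -0.39 to 0.17), so the numbers were not taken as pairs. With the replicate block, SB-3CT against control gave 0 cathepsins higher and 0 lower, and single calls were lost for CTSH (IFN-γ against control), CTSF (SB-3CT+IFN-γ against IFN-γ) and CTSB (SB-3CT+IFN-γ against SB-3CT).

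Leaving out 1 sample gave 1 to 2 cathepsins lower for IFN-γ against control, 0 to 1 higher and 0 lower for SB-3CT against control, 0 to 1 higher and 3 to 5 lower for SB-3CT+IFN-γ against IFN-γ, and 0 to 1 higher and 1 to 5 lower for the difference of differences. Ranges that crossed 0 were -0.0172 to 0.0861 for CTSA and -0.13 to 0.00829 for CTSS in SB-3CT against control (turned without control replicate 1 and 3), -0.12 to 0.0348 for CTSK in SB-3CT+IFN-γ against IFN-γ (without SB-3CT+IFN-γ replicate 1 or 3) and -0.17 to 0.11 for CTSK in SB-3CT+IFN-γ against SB-3CT (without SB-3CT replicate 3 or SB-3CT+IFN-γ replicate 1). CTSS in SB-3CT+IFN-γ against IFN-γ ranged from 0.13 to 0.22. In the difference of differences CTSF was called without control replicate 3 (-0.46) and CTSK without SB-3CT replicate 3 (0.47).

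Over 50 differences of single cathepsins and 748 alternatives, the call at a fold over 1.5 not among them, 634 kept their sign and side of the threshold, 73 lost a call, 20 gained one and 21 changed sign. The rises of CTSS, CTSO and CTSC with IFN-γ, without SB-3CT and with it, were called under every alternative tried, except that CTSC missed a fold of 1.5 in both comparisons. CTSS and CTSO passed the filter of 1 FPKM through the samples with IFN-γ, so that alternative is no separate check of their rises. Absolute depth is unknown, so no limit of detection could be given for the low levels of CTSS and CTSO without IFN-γ.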
